A study of Mus musculus with 8 samples.

Results

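Neurexins, neuroligins and 3 further adhesion proteins of synapses were followed in astrocytes from 2 brain regions. The genes were Nlgn1, Nlgn2, Nlgn3, Nrxn2, Nrxn3, Cadm1, Nrcam and Lrp4, chosen by symbol and matched through their Ensembl identifiers to 8 of the 55417 gene rows of each count table. All 8 passed the filter on low counts and were among the 11781 genes tested for region. The cells were wild-type astrocytes, flow sorted at postnatal day 29 from cortical or subcortical tissue of 4 mice, 2 females (mice 2 and 3) and 2 males (mice 1 and 4). Each mouse gave 1 cortical and 1 subcortical library, which makes 4 libraries per region, 2 from each sex. The labels name no treatment, do not say which subcortical structures were taken, and give neither the gate nor a reporter used for sorting.

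Neurexins are presynaptic transmembrane proteins that bind neuroligins across the synaptic cleft, and both families are spliced into many forms. Astrocytes also make neuroligins, which bind neurexins on neurons and are known to shape how finely astrocytes branch among synapses. The other proteins act by similar contacts. Cadm1 encodes SynCAM 1, an immunoglobulin-type protein that binds itself and its relatives. Nrcam encodes a member of the L1 family, which has been placed at contacts of astrocyte processes with inhibitory synapses. Lrp4 encodes the receptor for agrin at the neuromuscular junction, and in brain it is found in astrocytes.

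Gene counts summed to between 3537852 and 4060891 per cortical library and between 2484717 and 3829804 per subcortical one. Levels are given in CPM, the field's unit for counts scaled to a common library size, here after TMM scaling (trimmed mean of M-values). The reads come from the 3′ ends of transcripts, so that levels do not grow with transcript length. One count equalled 0.23 to 0.48 CPM. All 10 astrocyte markers were detected, at a sum of 30862 to 32003 CPM in cortical against 19441 to 21269 in subcortical libraries, with 4 called higher and 1 lower in cortical cells. Markers of other cells also moved with region. The 12 neuronal markers summed to 228 to 501 CPM in cortical against 58.1 to 89.5 in subcortical libraries, with all 12 detected and 2 of 10 tested called higher. The 7 oligodendrocyte markers, all detected, summed to 816 to 1308 CPM in cortical against 2174 to 5497 in subcortical libraries, with 6 of 7 called lower in cortical cells. Of 7 precursor markers Gpr17 had no counts, and the sum was 237 to 313 against 395 to 683 CPM, with 2 of 4 tested called lower. The 7 microglial markers, all detected, summed to 148 to 335 against 110.1 to 188 CPM, with 3 of 6 tested called higher in cortical cells. The 5 mural and fibroblast markers summed to 532 to 1039 against 472 to 1265 CPM, with 1 called lower. The 4 ependymal markers summed to 61.7 to 101.7 against 101.5 to 118 CPM, with 1 called lower. Of 5 endothelial markers Tek had no counts, and the sum was 4.22 to 7.47 against 0.96 to 16.8 CPM, with 0 of 1 tested called. The part of these cells in the differences below was not tested. In bulk samples, fewer cells of a type and less RNA per cell cannot be told apart.

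The first comparison asked how the adhesion genes differ between cortical and subcortical astrocytes. Cadm1 was 3.0-fold higher in cortical cells, Nrxn3 was 1.8-fold higher in subcortical cells, and the other 6 genes did not pass the test. Thus 2 of 8 were called, 1 in each direction, by edgeR's quasi-likelihood test at a Benjamini-Hochberg adjusted p of 0.05, against 6.81% of all tested genes (3.42% higher and 3.39% lower in cortical cells). The cortical and subcortical values of 3 genes, Cadm1, Nrxn3 and Lrp4, did not overlap, which held for 12.2% of all tested genes. In 5 genes all 4 mice differed in the same direction, against 26.4% of tested genes. The median log2 fold change of the 8 genes was 0.34, beside -0.0099 over all tested genes. The 8 genes were chosen with earlier results of these data known, so these comparisons with all tested genes are descriptions only. When any 1 library was left out, 1 or 2 of the genes were called, and not always the same ones. Of these 8 fits, Cadm1 was called in 8, Nrxn3 in 3, Nrxn2 in 1 and Lrp4 in 1. Over all tested genes the same fits called 312 to 389 higher and 302 to 403 lower.

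**Figure D1:**
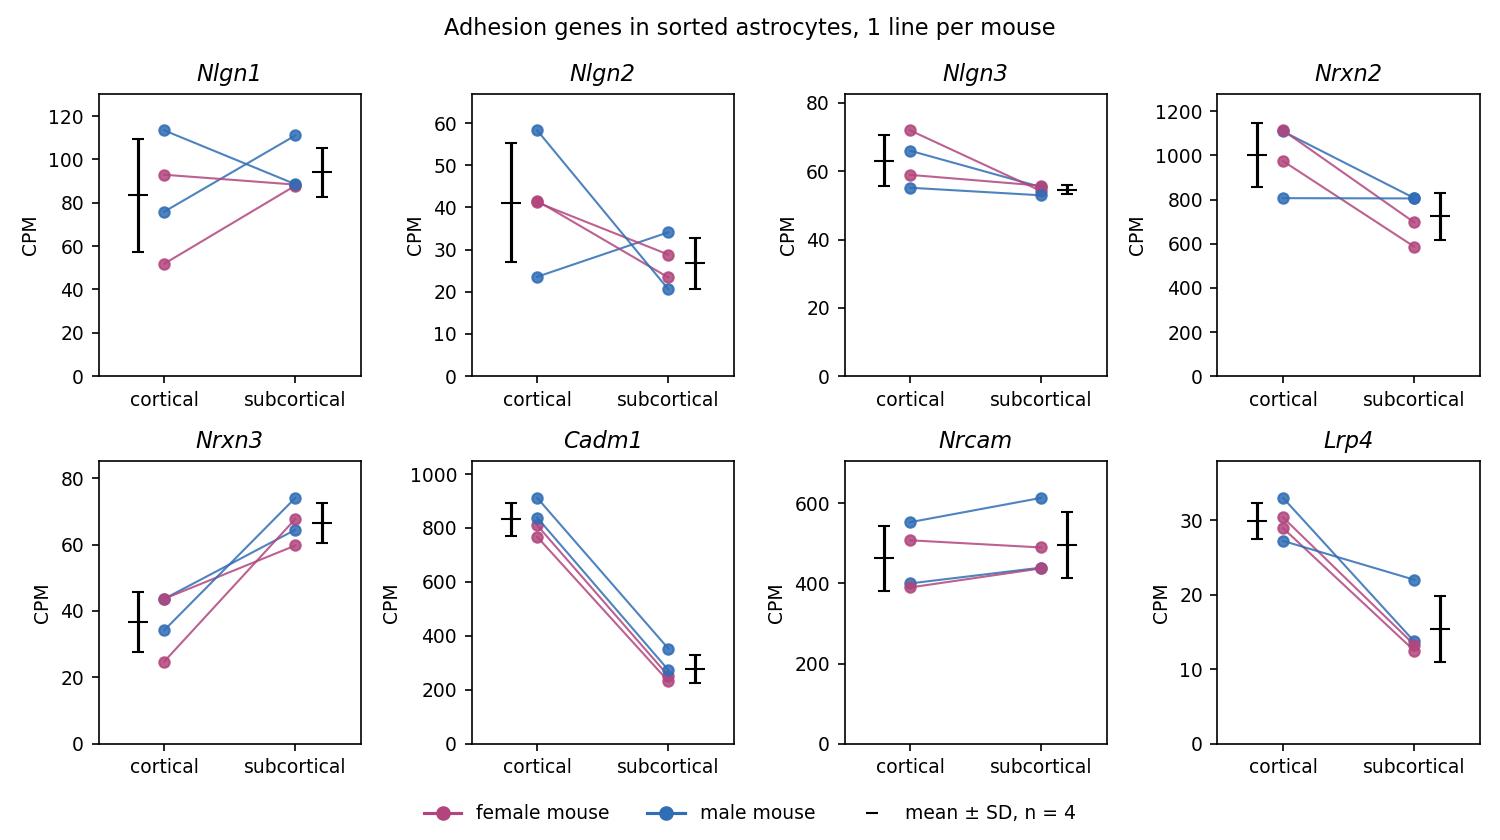
Level of each adhesion gene in CPM (vertical axis from 0, a separate scale per gene) in the cortical and subcortical library of each mouse, joined by a line, with the mean and SD of 4 libraries beside the points. Cadm1 lies between 767 and 912 CPM in cortical and between 232 and 353 CPM in subcortical libraries, while the lines of Nlgn1 cross.

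The levels of these genes spanned a wide range. In cortical libraries Nrxn2 stood at 1001 ± 145 CPM, Cadm1 at 832 ± 60.7 CPM and Nrcam at 463 ± 80.4 CPM (SD, n = 4). Nlgn1, Nlgn3, Nlgn2, Nrxn3 and Lrp4 followed, with means between 83.6 and 29.9 CPM. Neighbours in that lower stretch were not separated, since the range over libraries of each gene overlapped that of the next, and Nrxn2 and Cadm1 also overlapped. In subcortical libraries the order was Nrxn2, Nrcam, Cadm1, Nlgn1, Nrxn3, Nlgn3, Nlgn2 and Lrp4. There the ranges of Nrxn2 and Nrcam, and of Nlgn2 and Lrp4, overlapped, and all other neighbours were apart. Among all tested genes Nrxn2 ranked 99 from the top by mean level, Cadm1 173, Nrcam 203 and Lrp4 5534.

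Among the neurexins, the 2 genes went different ways. Nrxn3 (ENSMUSG00000066392), which encodes a neurexin with long and short forms, stood at 43.7, 24.8, 43.7 and 34.2 CPM in the cortical libraries of mice 1 to 4. The subcortical libraries of the same mice had 64.5, 67.8, 59.8 and 74.1 CPM. Every subcortical value lay above every cortical one, and the lowest of all was cortical mouse 2. The means were 36.6 ± 9.05 and 66.5 ± 6.03 CPM (SD, n = 4), a log2 fold change of -0.86 (SE 0.23, 95% interval -1.35 to -0.38, edgeR adjusted p = 0.025). The call rested on single libraries. Without cortical mouse 2 the adjusted p was 0.095, without cortical mouse 4 0.055, and without subcortical mouse 1, 2 or 4 it was 0.053, 0.052 and 0.076. It kept its direction each time, with log2 fold changes between -0.96 and -0.71. DESeq2 and limma-voom also called it (adjusted p = 0.0070 and 0.019). The fit with the mouse as a block did so too (adjusted p = 0.022), with 7.51% of all tested genes called. It was not called at an adjusted p of 0.01, which 4.05% of them passed. The summed markers of oligodendrocytes and of their precursors were also higher in every subcortical library than in any cortical one. The part of those cells in the Nrxn3 difference was not tested.

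The 3′ reads of Nrxn3 sum over its transcripts, whatever their start, and cannot tell its forms apart. RefSeq (GRCm38.p6) gives 3 start windows for it. The 250 bases before each annotated start, on the plus strand, are shown because they differ in the density of CG dinucleotides. The CG dinucleotides are in capitals. Whether transcripts begin at these annotated starts in astrocytes was not tested, and a window need not be a promoter. The coordinates are of that build and not of GRCm39, which the submitters' processing notes name.
Nrxn3 window 1, chr12:88794254-88794503: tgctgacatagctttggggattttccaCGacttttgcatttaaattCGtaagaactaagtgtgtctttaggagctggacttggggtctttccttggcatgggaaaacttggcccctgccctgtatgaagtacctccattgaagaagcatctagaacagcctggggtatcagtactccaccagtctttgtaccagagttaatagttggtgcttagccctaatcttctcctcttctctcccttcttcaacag
Nrxn3 window 2, chr12:88953140-88953389: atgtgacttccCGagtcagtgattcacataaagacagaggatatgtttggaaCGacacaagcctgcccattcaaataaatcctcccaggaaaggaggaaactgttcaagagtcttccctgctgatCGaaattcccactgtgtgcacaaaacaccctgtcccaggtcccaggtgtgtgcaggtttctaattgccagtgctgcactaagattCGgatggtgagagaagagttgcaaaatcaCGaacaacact
Nrxn3 window 3, chr12:89812233-89812482: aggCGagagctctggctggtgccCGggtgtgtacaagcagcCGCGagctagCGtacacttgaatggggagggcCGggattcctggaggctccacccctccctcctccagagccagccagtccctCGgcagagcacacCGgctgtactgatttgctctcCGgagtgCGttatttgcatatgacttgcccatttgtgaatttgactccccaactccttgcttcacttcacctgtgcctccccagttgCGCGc
The windows hold 2, 5 and 12 CG dinucleotides, against a median of 6 over 32851 such windows of all genes. The first has fewer than most windows, with 18.8% of windows below it, and the third has more, with 66.5% below it. The sequence TATAAA, searched on both strands, was in none of the 3 and is in 12.4% of all windows. Windows were at hand for 4 of the 8 genes (Nlgn1, Nlgn2, Nrxn3 and Nrcam).

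Nrxn2 (ENSMUSG00000033768), the other neurexin gene, was the most abundant of the 8. Its cortical libraries had 1109, 1113.5, 974 and 806 CPM in mice 1 to 4, and its subcortical libraries 807, 697, 587 and 805 CPM. The ranges touched, since cortical mouse 4 had nearly the same value as subcortical mice 1 and 4. The means were 1001 ± 145 and 724 ± 105 CPM (SD, n = 4), with a log2 fold change of 0.47 (SE 0.16, 95% interval 0.13 to 0.80). The edgeR adjusted p was 0.097, short of the threshold. DESeq2 called the gene (adjusted p = 0.029), as did limma-voom by a narrow margin (adjusted p = 0.04997), and these tools called 8.74% and 6.61% of all tested genes. Without cortical mouse 4 edgeR called it (adjusted p = 0.043). Of the counts of Nrxn2 and Nrxn3 together, Nrxn3 took 3.58 ± 0.96% in cortical and 8.48 ± 0.79% in subcortical libraries (SD, n = 4). The cortical shares ran from 2.18 to 4.29% and the subcortical ones from 7.40 to 9.24%, without overlap. Other neurexin genes were not counted in these shares, and the shares were not tested. Nrxn2 shares 207 exon bases with Gm14964 and 682 with Slc22a12, and Nrxn3 439 with Gm37980, all on the opposite strand. Those genes had 525, 14 and 0 counts over the 8 libraries, beside 24217 for Nrxn2 and 1333 for Nrxn3. Whether strand was used in counting is not stated.

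The neuroligins, which are the partners of neurexins, showed no called difference between regions. Nlgn1 (ENSMUSG00000063887), known from excitatory synapses, had 75.9, 51.9, 93.0 and 113 CPM in the cortical libraries of mice 1 to 4. Its subcortical libraries had 111, 87.9, 88.4 and 88.6 CPM. The cortical values spread on both sides of the subcortical ones, and 2 mice were higher and 2 lower in cortex. The log2 fold change was -0.17 (SE 0.22, 95% interval -0.63 to 0.29, edgeR adjusted p = 0.783), an interval that leaves room for a change of either sign.

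Nlgn2 (ENSMUSG00000051790), known from inhibitory synapses, was the least abundant neuroligin gene. Its cortical libraries had 23.6, 41.2, 41.6 and 58.3 CPM in mice 1 to 4, and its subcortical libraries 34.1, 28.8, 23.4 and 20.6 CPM. Mice 2, 3 and 4 were higher in cortex and mouse 1 was lower, and the ranges overlapped. The means were 41.2 ± 14.2 and 26.7 ± 5.98 CPM (SD, n = 4), with a log2 fold change of 0.63 (SE 0.29, 95% interval 0.019 to 1.24). That interval excludes 0 for the gene taken alone (unadjusted p = 0.044), but not after adjustment over all genes (edgeR adjusted p = 0.267).

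Nlgn3 (ENSMUSG00000031302), known from both kinds of synapse, varied least of the neuroligin genes. The spread between its subcortical libraries, 2.32% of their mean, was below the 8.21% that counting error alone gives. Its subcortical libraries lay within 52.9 and 55.7 CPM, and its cortical libraries had 66.0, 58.9, 71.9 and 55.2 CPM in mice 1 to 4. All 4 mice were higher in cortex, by small ratios of 1.04 to 1.33, and the ranges overlapped. The log2 fold change was 0.21 (SE 0.20, 95% interval -0.22 to 0.63, edgeR adjusted p = 0.686). In the annotation at hand the readthrough gene Gm21986 shares 3823 exon bases with Nlgn3 on the same strand, and reads in a shared stretch belong to neither gene alone, so that the level of Nlgn3 is uncertain.

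The makeup of the neuroligin counts was compared within libraries, which does not depend on scaling. Nlgn1 took 43.8 ± 6.77% of them in cortical and 53.6 ± 1.94% in subcortical libraries, Nlgn3 34.4 ± 7.10% and 31.3 ± 2.47%, and Nlgn2 21.8 ± 5.86% and 15.1 ± 2.08% (SD, n = 4). The Nlgn1 shares did not overlap, at 34.1 to 50% in cortical and 51.0 to 55.4% in subcortical libraries. These libraries held 359 to 942 neuroligin counts each. At that depth the 95% Wilson interval of the Nlgn1 share was 46.8 to 53.2% in cortical mouse 4 and 45.8 to 56.1% in subcortical mouse 2, so that the 2 nearest libraries were not separated by counting error. Nlgn2 and Nlgn3 shares overlapped between regions. The shares do depend on how reads of stretches shared with other genes were assigned. Of 1804 stretches of 50 bases from the ends of Nlgn3 transcripts, 1035 also occur in Gm21986, and ambiguous reads were left out. Nlgn1 shares 1229 exon bases with A830092H15Rik on the opposite strand, and whether strand was used in counting is not stated. What this does to the shares was not tested, and no test was made of the shares.

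**Figure D2:**
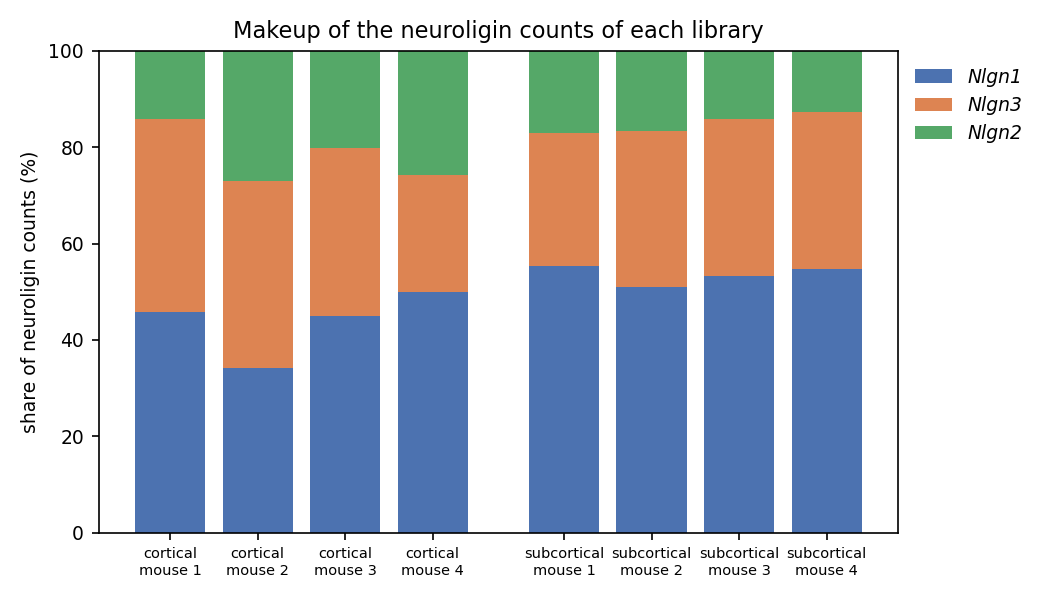
Share of the summed Nlgn1, Nlgn2 and Nlgn3 counts (vertical axis, percent) taken by each gene in each of the 8 libraries, 1 bar per library. The Nlgn1 part is 34.1 to 50% in the cortical bars and 51.0 to 55.4% in the subcortical bars.

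Cadm1 (ENSMUSG00000032076), the SynCAM 1 gene, had the largest difference of the 8. Its cortical libraries had 912, 810.0, 767 and 838 CPM in mice 1 to 4. Its subcortical libraries had 353, 252, 232 and 273 CPM. The lowest cortical library was at 767 CPM and the highest subcortical one at 353 CPM, so the groups lay far apart. The ratio within a mouse was 2.58, 3.22, 3.31 and 3.07. The log2 fold change was 1.58 (SE 0.17, 95% interval 1.24 to 1.93, edgeR adjusted p = 8.4e-07). It was called under all 18 alternative settings, with log2 fold changes of 1.51 to 1.72 and, without any single library, an adjusted p of at most 1.3e-05. Against a fold of 1.5, where 2.83% of all tested genes passed, it was the 1 gene of the 8 to pass (edgeR adjusted p = 5.4e-05). The spread between cortical libraries was 7.30% of their mean, where counting error alone gives 1.72%, and that between subcortical libraries was 19.1%, where it gives 3.64%. The summed neuronal markers were also higher in every cortical library than in any subcortical one, and the part of neurons in the Cadm1 difference was not tested.

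Lrp4 (ENSMUSG00000027253), the agrin receptor gene, was the least abundant of the 8. It had 33.0, 28.9, 30.4 and 27.2 CPM in the cortical libraries of mice 1 to 4, and 13.7, 12.5, 13.3 and 22.01 CPM in the subcortical ones. The groups did not overlap, and subcortical mouse 4 stood above the other subcortical libraries. The log2 fold change was 0.95 (SE 0.30, 95% interval 0.32 to 1.58). Neither edgeR (adjusted p = 0.066) nor limma-voom (0.102) called it, whereas DESeq2 did (0.039), and so did edgeR when subcortical mouse 4 was left out (log2 fold change 1.18, adjusted p = 0.032). Only 176 counts over the 4 subcortical libraries and 487 over the cortical ones lay behind these values. Counting error alone gives 15.1% of the subcortical mean, where the spread between libraries was 28.9%.

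Nrcam (ENSMUSG00000020598), the L1 family gene, was abundant and overlapped in level between the regions. Its cortical libraries had 399.9, 508, 389.9 and 553 CPM in mice 1 to 4, and its subcortical libraries 439, 489.7, 438 and 613 CPM. The libraries of mouse 4 were the highest in each region, and mouse 2 alone was higher in cortex. The log2 fold change was -0.098 (SE 0.17, 95% interval -0.45 to 0.26, edgeR adjusted p = 0.848). A difference of 1.5-fold lies outside that interval.

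**Figure D3:**
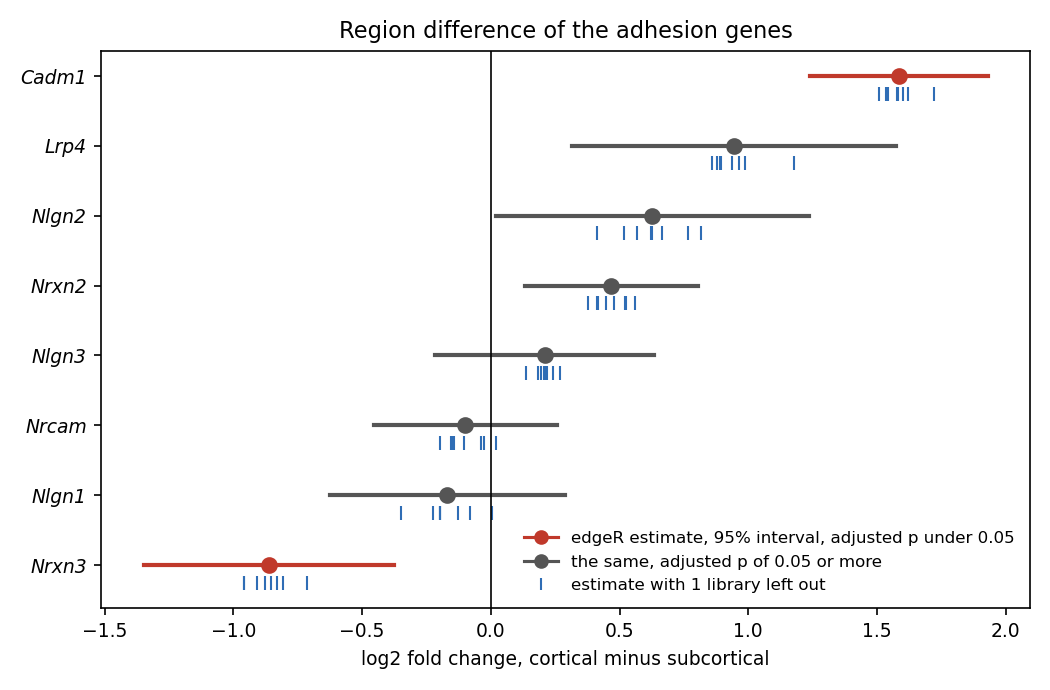
Log2 fold change, cortical minus subcortical (horizontal axis), of each adhesion gene by edgeR with its 95% interval, and below it the 8 estimates with 1 library left out. Cadm1 at 1.58 and Nrxn3 at -0.86 are the 2 genes with an adjusted p under 0.05.

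The genes most like each adhesion gene were sought by Pearson's r of log2 CPM over the 8 libraries, among 7979 genes with a mean of at least 10 CPM. These correlations describe the same 8 libraries, which differ in region and in depth. A search of 7979 genes over 8 libraries picks high values of r by selection. How high r would run for unrelated genes was not tested. Cadm1 was most like Plekho1 (r = 0.996), which was higher in cortical cells by a log2 fold change of 1.95 (edgeR adjusted p = 8.6e-06). Nrxn3 was most like Dapk1 (r = 0.987), a kinase gene that was lower in cortical cells by a log2 fold change of -1.31, and Zfp422 (r = 0.976). Lrp4 was most like Eya1 (r = 0.987) and Ptger4 (r = 0.984), both called higher in cortical cells. The genes most like Nlgn1 (Taf3 and Ptpn4), Nlgn2 (Mospd2 and Ikbip), Nlgn3 (Yeats4 and Med27), Nrxn2 (Spcs2 and Elovl2) and Nrcam (Tmem243 and B4galt1) had r between 0.922 and 0.980, and none of these 10 was called by region. Among the 8 genes themselves, Cadm1 and Lrp4 had r = 0.892, and Cadm1 and Nrxn3 had r = -0.842.

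The study's title concerns female mice, so the adhesion genes were also compared between the sexes. None of the 8 was called in counts summed per mouse, 2 females against 2 males, where edgeR called 0.0373% of all tested genes. None had an unadjusted p under 0.05, and the smallest over the 8 genes was 0.238 with edgeR, 0.260 with DESeq2 and 0.196 with limma-voom. The log2 fold changes, female minus male, lay between -0.29 for Nlgn1 (95% interval -0.79 to 0.21) and 0.085 for Nlgn3 (95% interval -0.42 to 0.59). For Cadm1 the difference was -0.13 (95% interval -0.51 to 0.25). These intervals leave room for differences of either sign. The Nlgn1 value was -0.56 without mouse 3 and -0.055 without mouse 2.

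The region difference was then compared between the sexes, by an interaction term in a joint fit of all 8 libraries. No gene was called (0% of 13334 tested genes) with edgeR, DESeq2 or limma-voom, while 502, 532 and 450 genes had an unadjusted p under 0.05. None of the 8 adhesion genes was among them. Nrxn2 had log2 ratios, cortical over subcortical, of 0.68 and 0.73 in the female mice and of 0.46 and 0.0022 in the male mice. The female ratios were both above the male ones, and the interaction was 0.46 (95% interval -0.20 to 1.13, edgeR unadjusted p = 0.164, adjusted p = 0.9999). Cadm1 had log2 ratios of 1.69 and 1.73 in the females and of 1.37 and 1.62 in the males, with an interaction of 0.23 (95% interval -0.44 to 0.90). Single libraries moved both values. For Nrxn2 the interaction was 0.71 without cortical mouse 1 and 0.23 without cortical mouse 4. For Cadm1 it was 0.038 without subcortical mouse 1 and 0.41 without subcortical mouse 4.

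**Figure D4:**
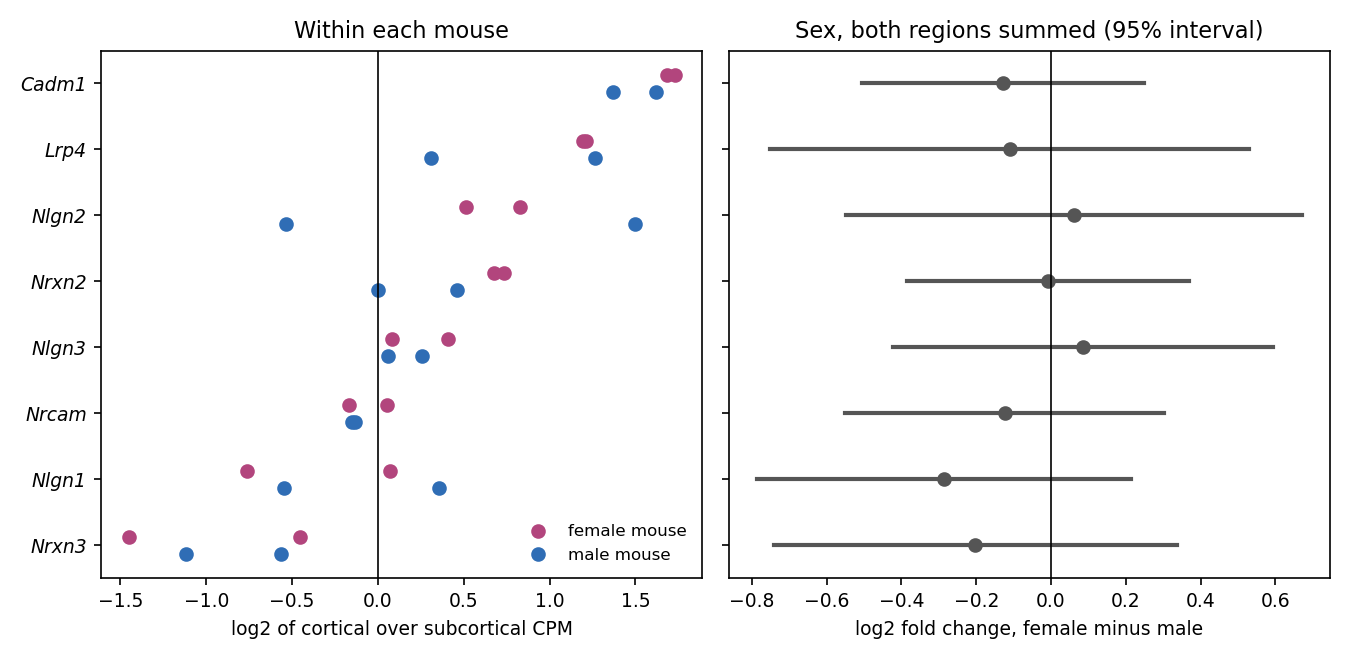
Log2 ratio of cortical over subcortical CPM within each mouse for each adhesion gene, females and males in different colours, and, on the right, the female minus male log2 difference of both regions summed, with its 95% interval. All 4 mice are above 0 for Cadm1 and below 0 for Nrxn3, and every interval of the sex difference includes 0.

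The partners of these proteins were taken from 6 lists of 101 genes in all, of which 72 could be tested. Cortical cells were higher in 3 of them and lower in 11, and 58 were not called. That is 19.4% called, beside 6.81% of all tested genes, and the median log2 fold change was -0.04, beside -0.0099. The lists were chosen with earlier results of these data known, so their called share is not independent of the data and is a description only. Genes of 5 lists were called, and those of the nectin and SynCAM list were not.

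Among 15 tested genes (of 27) of the list of neurexin and neuroligin partners, 1 was higher and 3 were lower in cortical cells. The list also holds genes of latrophilin ligands, among them Flrt2. Mdga1, whose product binds neuroligins and blocks neurexin from binding, had 25.1 ± 3.22 CPM in cortical against 6.38 ± 1.22 CPM in subcortical libraries (log2 fold change 1.97, edgeR adjusted p = 0.0011). Its relative Mdga2 had 94.3 ± 15.3 and 183 ± 85.4 CPM (SD, n = 4), a log2 fold change of -0.95 (edgeR adjusted p = 0.018). The cortical and subcortical values of Mdga2 overlapped and 3 of 4 mice were lower in cortex, whereas those of Mdga1 did not overlap.

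Flrt2, a ligand of latrophilins, had 27.7 ± 9.66 CPM in cortical against 109.8 ± 34.4 CPM in subcortical libraries (log2 fold change -1.99, edgeR adjusted p = 4.1e-05). Sparcl1 encodes hevin, a protein secreted by astrocytes that bridges neurexin and neuroligin. It was the most abundant of these genes, at 18736 ± 3447 and 30056 ± 8075 CPM (log2 fold change -0.68, edgeR adjusted p = 0.017), and its groups overlapped. Mdga2 and Sparcl1 lost their calls without cortical mouse 1, with log2 fold changes of -0.91 and -0.57 (edgeR adjusted p = 0.067 and 0.073). They also lost them without subcortical mouse 2, where the log2 fold changes were -0.60 and -0.51 (adjusted p = 0.120 and 0.063). The other 12 called list genes kept theirs without any 1 library.

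The relatives of Cadm1 did not share its call. All 7 genes of the nectin and SynCAM list were tested, with log2 fold changes between -0.92 and 0.98. None was called by edgeR, DESeq2 or limma-voom, and 2 had an unadjusted edgeR p under 0.05. That Cadm1 differs from them was not tested.

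Among the relatives of Nrcam, 2 of 8 tested genes of the L1 and contactin list were lower in cortical cells and none was higher. Chl1, the close homologue of L1, had 89.2 ± 14.7 CPM in cortical against 299.6 ± 6.45 CPM in subcortical libraries (log2 fold change -1.75, edgeR adjusted p = 3.2e-07). Cntn1, a contactin with a lipid anchor, had 45.3 ± 13.1 and 147 ± 24.7 CPM (log2 fold change -1.70, edgeR adjusted p = 2.3e-05). Neither gene's groups overlapped. Cntn1 is also made by cells of the oligodendrocyte lineage, whose summed markers were higher in every subcortical library than in any cortical one, and their part was not tested.

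In the agrin and LDL receptor list, 3 of 10 tested genes were lower in cortical cells, beside a log2 fold change of 0.95 for Lrp4 itself, which was not called. App, the amyloid precursor protein gene, had 53.2 ± 5.61 and 116 ± 27.1 CPM (log2 fold change -1.13, edgeR adjusted p = 0.0011). Dok7, an adaptor of the agrin pathway in muscle, had 86.3 ± 14.3 and 157 ± 11.7 CPM (log2 fold change -0.86, edgeR adjusted p = 0.0033). Lrp1, a large receptor for many ligands, had 656 ± 82.3 and 1052 ± 143 CPM (log2 fold change -0.68, edgeR adjusted p = 0.0078). Musk, which encodes the kinase that LRP4 activates in muscle, had 12 counts over the 8 libraries and was not tested.

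Receptor phosphatases and their partners, a further set of synaptic adhesion proteins, gave 3 of 16 tested genes lower in cortical cells and none higher. Ntrk3, a neurotrophin receptor gene, had 90.7 ± 9.0 and 218 ± 4.86 CPM (log2 fold change -1.27). Lrrc4c, which encodes a netrin-G ligand, had 34.3 ± 4.91 and 77.4 ± 21.5 CPM (log2 fold change -1.17), and the phosphatase gene Ptprd 87.0 ± 11.8 and 167 ± 11.8 CPM (log2 fold change -0.94). Their edgeR adjusted p-values were 1.8e-05, 0.0027 and 0.0011.

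Of the scaffolds that hold these proteins inside the cell, 2 of 16 tested genes were higher in cortical cells and none was lower. Dlg4, which encodes PSD-95, had 522 ± 64.5 and 305 ± 85.1 CPM (log2 fold change 0.77, edgeR adjusted p = 0.010). Mpp2 had 20.7 ± 8.75 and 3.92 ± 1.22 CPM (log2 fold change 2.39, edgeR adjusted p = 0.0018), with 42 counts over the subcortical libraries. Both scaffolds are also made by neurons, whose summed markers were higher in every cortical library than in any subcortical one, and their part was not tested.

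**Figure D5:**
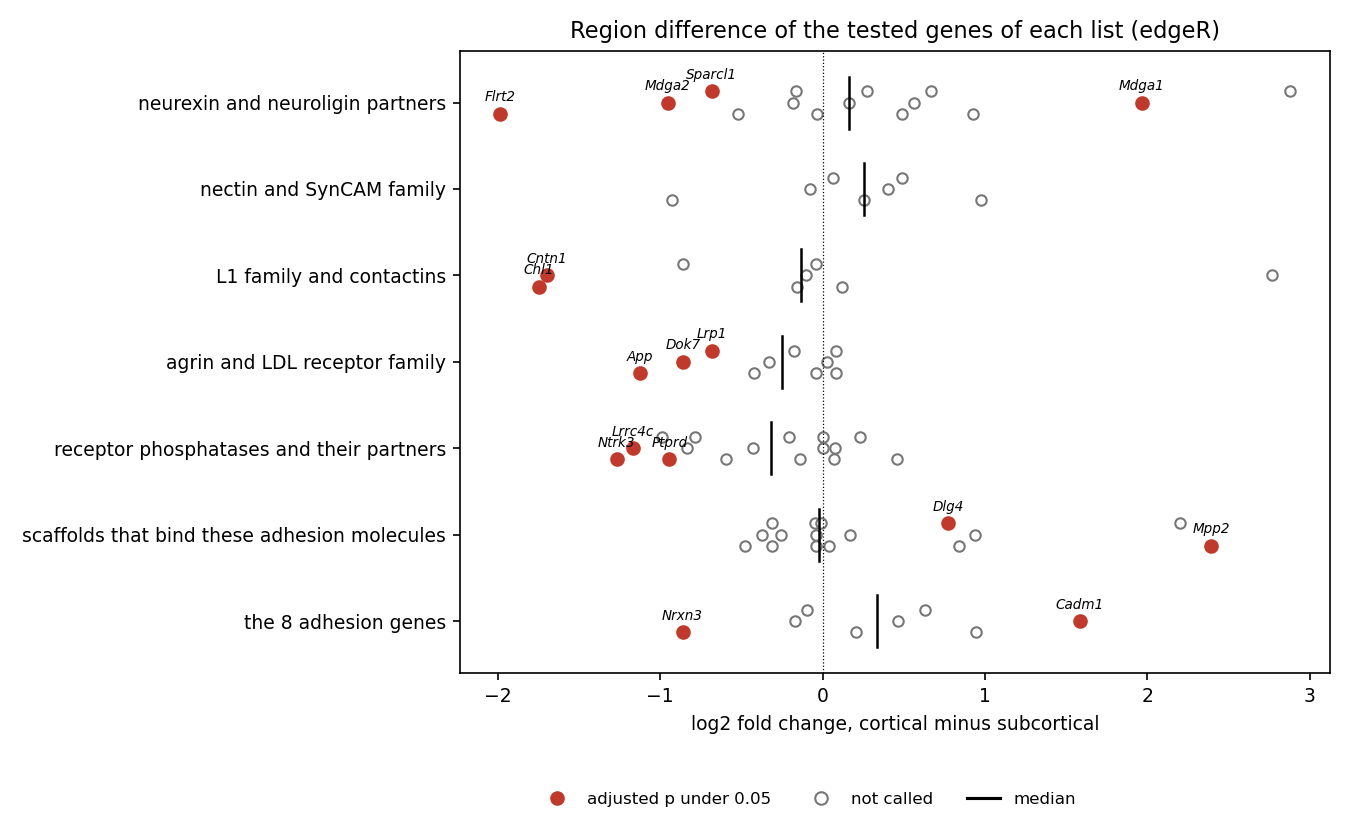
Log2 fold change, cortical minus subcortical (horizontal axis), of each tested gene in the 6 partner lists and, in the lowest row, of the 8 adhesion genes. Filled, named points are called genes, open points are not called, and the vertical bar is the median of the row. The called genes lie on the negative side in the L1, agrin and phosphatase rows and on the positive side in the scaffold row.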

How the data were processed

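Libraries of 3′ ends (QuantSeq FWD) from sorted astrocytes of 4 mice were analysed, 1 cortical and 1 subcortical library per mouse. The authors deposited whole-number counts of reads per gene for each library. Per the submitters' processing notes, the build was GRCm39 and the tools included HTSeq 0.9.0, STAR 2.6.0, DESeq2 1.35.0 and FastQC 0.11.5. Whether strand was used in counting is not stated there. A further table of 8 columns was not used. Reads assigned to no gene (30.2 to 40.7% of a table's total) and ambiguous reads (0.38 to 0.55%) were left out. Symbols were matched for 52083 gene rows, from another annotation build (GRCm38).

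Counts were fitted with edgeR 4.0.16 (R 4.3.3): filterByExpr with a minimum count of 10, TMM scaling, a quasi-likelihood test and Benjamini-Hochberg adjustment at 0.05. Region was tested over 8 libraries without a block, sex on counts summed per mouse, and their interaction in 1 fit. SEs are the log2 fold change over the root of F. Alternatives used DESeq2 1.42.0, limma-voom (limma 3.58.1), other filters, scaling and thresholds, the mouse as a block, a sex term, and leaving out each library. The fits were tested on simulated data. Same-mouse libraries pair by animal. Their deviations from the group means correlated at 0.019 to 0.059, beside -0.084 to 0.047 for libraries of another mouse and region. These ranges overlap. Libraries of 1 region all differed by more than counting error (chi-square over its degrees of freedom, 11.7 to 23.7). Wilson intervals cover counting error only.

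The adhesion genes and lists were chosen with earlier results of these data known. Besides the 8 genes, the text names up to 3 called genes per list and direction with the largest change and a mean of at least 10 CPM, and the 2 genes most like each of the 8, of which 1 is not reported here. Musk was named after its counts were seen.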

Additional observations from a re-analysis of the deposited data

Results flagged for a closer look

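In 52 groups of 4 libraries (the levels and shares of the genes named above), 4 had a library far from the other 3 by Dixon's criterion, and chance sets about 1 in 20 groups apart. Subcortical mouse 1 had 111.1 CPM of Nlgn1, while the other 3 subcortical libraries lay between 87.9 and 88.6 CPM. In the same library Nlgn3 took 27.6% of the neuroligin counts, the lowest subcortical share. Subcortical mouse 4 had 22.01 CPM of Lrp4, above the 12.5 to 13.7 CPM of the other 3. The lowest subcortical level of Chl1 was 290.02 CPM, in a group whose spread over libraries (2.15% of the mean) was below what counting error alone gives (3.49%).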

How the results depend on the processing

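Cadm1 was called under all 18 alternatives and Nrxn3 under 11. With DESeq2, which called 8.74% of all tested genes where edgeR called 6.81%, 4 of the 8 genes and 7 list genes (higher) were called. At an adjusted p of 0.01, 251 genes were higher, 226 lower and 1 of the 8 was called. Against a fold of 1.5 these were 177, 156 and 1, with 4 list genes lower. With 1 library left out, 1 to 2 of the 8 were called, beside 312 to 389 of all tested genes higher and 302 to 403 lower. The log2 fold change then ran from -0.35 to 0.0033 for Nlgn1 and from -0.20 to 0.021 for Nrcam. For sex, limma-voom called 0 genes lower, no filter 3 higher and 12 lower, and a random effect for the mouse 2 lower. Leaving out a mouse, where the lone mouse of a sex is assumed to vary like the other sex, gave 2 to 13 genes higher and 8 to 17 lower. Sex differences then ran from -0.18 to 0.37 (Nlgn2), -0.016 to 0.19 (Nlgn3), -0.16 to 0.16 (Nrxn2), -0.27 to 0.031 (Cadm1) and -0.34 to 0.13 (Nrcam). For the interaction, no filter gave 1 gene lower, and leaving out a library gave 0 to 1 higher and 0 to 1 lower. Its values then ran from -0.68 to 0.17 (Nlgn1), -0.43 to 0.86 (Nlgn2), -0.054 to 0.24 (Nlgn3), -0.52 to 0.30 (Nrxn3) and -0.15 to 0.34 (Nrcam). The cause of these changes was not tested.

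With the mouse as a replicate block, 438 genes were higher and 447 lower, 2 of the 8 adhesion genes were called and none of the 8 changed its call. The block gave 1 interaction gene lower. Depth limits Lrp4 most, with 26 to 133 counts per library.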
